A study of Mus musculus with 25 samples.

Results

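MicroRNAs (miRNAs) of the miR-204/miR-211 and miR-34/miR-449 families were followed in the mouse hypothalamus under maternal and offspring hypercaloric feeding. The members were the 9 table entries named mmu-miR-204-5p, mmu-miR-204-3p, mmu-miR-211-5p, mmu-miR-34a-5p, mmu-miR-34b-5p, mmu-miR-34b-3p, mmu-miR-34c-5p, mmu-miR-34c-3p and mmu-miR-449a-5p, out of 1618 miRNA entries, and the species prefix is left off from here. They were chosen by name, as miRNAs known from choroid plexus epithelium and from ciliated cells such as ependyma. Earlier results of these data were known when the choice was made. All 9 had mean molecule counts of at least 10 in both groups of every comparison, so none carried the authors' low-count remark.

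Wild-type C57BL/6J mice were killed at 3 months of age and small RNA of the whole hypothalamus was sequenced from 25 libraries. Dams were given regular chow (RD) or a hypercaloric, sucrose-rich food with 52% fat (HCD), starting 1 month ahead of mating and ending with lactation, and their pups received RD or HCD once weaned. In a group name the maternal diet stands before the hyphen and the pup's own diet after it. The RD-RD males were 4 libraries and the HCD-HCD, HCD-RD and RD-HCD males 3 libraries each, while each of the 4 female groups had 3 libraries. The labels name no litter or dam and do not say that libraries came from separate animals, so the p-values rest on variation among libraries that may be partly technical.

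miRNAs guide the silencing of messenger RNAs that match their seed, bases 2 to 8 from the 5′ end. Each hairpin precursor yields a 5p and a 3p arm, and one arm is usually retained more than the other. miR-204 is made from an intron of Trpm3, is abundant in choroid plexus and retinal pigment epithelium, and has miR-211, from an intron of Trpm1, as its near-copy. The miR-34 and miR-449 families share a seed and act together in the formation of multiciliated cells, such as those that line the ventricles, partly by lowering Cp110, an inhibitor of cilium assembly. miR-34a is also widely expressed and, like miR-34b and miR-34c, is a transcriptional target of p53.

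The mature sequences show which members can share targets and which can share reads. They are given from RefSeq (GRCm38.p6), 5′ to 3′, with the seed in capitals, for the 8 of 9 members with an entry there.
miR-204-5p: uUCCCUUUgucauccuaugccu
miR-211-5p: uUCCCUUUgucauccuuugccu
miR-204-3p: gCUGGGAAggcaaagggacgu
miR-34a-5p: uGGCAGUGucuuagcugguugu
miR-34b-5p: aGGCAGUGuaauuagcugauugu
miR-449a-5p: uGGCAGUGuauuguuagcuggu
miR-34b-3p: aAUCACUAacuccacugccauc
miR-34c-3p: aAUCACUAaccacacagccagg
miR-204-5p and miR-211-5p shared 21 of 22 bases and differed by A17U, counted from 1 at the 5′ end with the miR-204-5p base given before the position. Reads of this pair may be hard to separate, so the values of each are uncertain. The seed GGCAGUG was held by 4 miRNAs with a sequence in the tables, namely miR-34a-5p, miR-34b-5p, miR-449a-5p and miR-449c-5p. The 3p arms of miR-34b and miR-34c had another seed, AUCACUA, which no other tabled miRNA with a sequence carried. Those 3p arms shared their first 10 bases and 17 of 22 in all, with U11C, C12A, U16A, U21G and C22G from miR-34b-3p to miR-34c-3p.

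The hairpins lay at 5 loci of GRCm38 (GENCODE M21). Mir204 was at chr19:22750605-22750672 on the plus strand, in an intron of Trpm3. Mir211 was at chr7:64205806-64205911 on the plus strand, in an intron of Trpm1. Mir34a was at chr4:150068454-150068555 on the plus strand and overlapped an exon of the unclassified transcript Gm37795. Mir34b at chr9:51103562-51103645 and Mir34c at chr9:51103034-51103110 were 451 bases apart on the minus strand, inside an intron of Btg4, which is read from the opposite strand. Mir449a at chr13:113037534-113037624 was on the plus strand in an intron of Cdc20b, 1442 bases from Mir449c.

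The deposited tables give each miRNA 1 fold and 1 unadjusted p-value in a comparison and nothing for single libraries, so levels cannot be given and the depth is unknown. Folds are of the named group over RD-RD of the same sex. A member was said to rise or fall when its p, adjusted by Benjamini-Hochberg over all miRNAs of the comparison, was under 0.05. Standard errors (SE) and 95% intervals were implied by the deposited fold and p. The comparisons of 1 sex share their RD-RD libraries, so a fold that recurs among them is not independent evidence. In RNA of whole tissue, fewer cells of a type and less RNA per cell cannot be told apart.

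The order numbers in the library names also ran with the groups. The 7 RD-RD and 3 RD-HCD female libraries carry 10 different numbers, and the other 15 libraries carry 15 different numbers, of which 8 repeat a number of those 10. No label says what these numbers stand for. If they mark separate series of libraries, series and diet cannot be told apart in the comparisons with RD-RD, except for RD-HCD females. The contrasts among HCD-HCD, HCD-RD and RD-HCD males lie within the 15 libraries. HCD-HCD and RD-HCD females lie in different sets, so in their contrast series and diet could not be told apart either. For the sex difference in RD-HCD, the male fold crosses the sets and the female fold does not.

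In males born to HCD dams the members moved in 2 directions. By the authors' deposited table, miR-204-5p and miR-34b-3p rose about 2-fold on either offspring diet, and miR-34b-5p and miR-34c-5p fell, to folds between 0.364 and 0.495. In HCD-HCD males 5 of 9 members passed the test, 3 higher and 2 lower, where 19.3% of 1426 tested miRNAs were called (5.61% higher and 13.7% lower). In HCD-RD males 5 of 9 passed, again 3 higher and 2 lower, where 18.4% of 1426 were called (6.38% higher and 12% lower). In RD-HCD males, whose dams ate RD, 0 of 9 passed, where 1.47% of 1426 were called (0.14% higher and 1.33% lower). At an unadjusted p under 0.05 the members numbered 6, 7 and 2 in the HCD-HCD, HCD-RD and RD-HCD males, beside 32.5%, 32.1% and 12.5% of all tested miRNAs. The members' median log2 fold in the same order was 0.26, 0.74 and -0.10, against 0.06, 0.08 and -0.01 over the miRNAs with no low-count remark and -0.26, -0.25 and -0.12 over all tested miRNAs. Among miRNAs with no remark, as the members are, 22.3%, 24.2% and 0.465% were called.

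**Figure D1:**
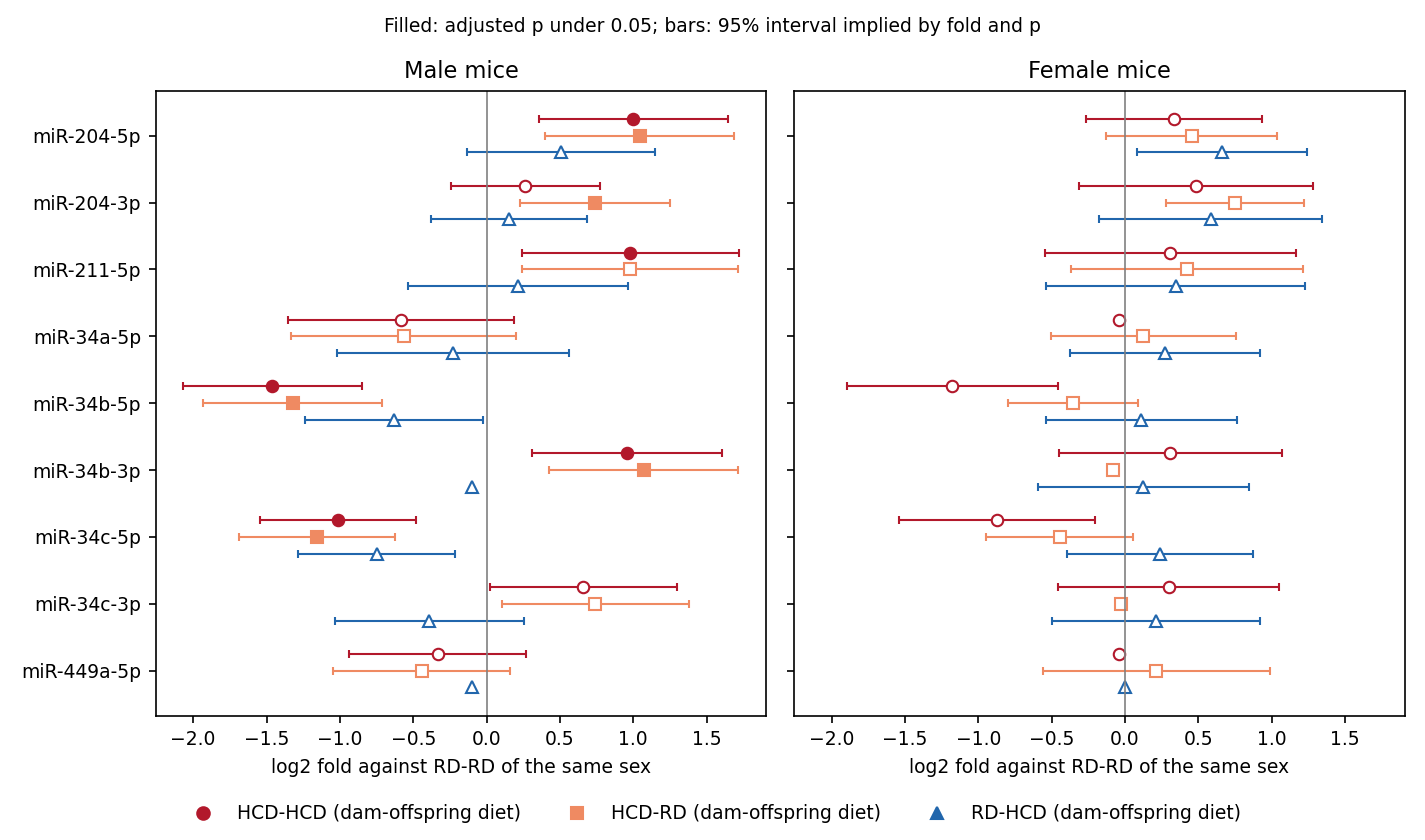
Log2 folds of the 9 members against RD-RD of the same sex, males and females in separate panels, with bars for the 95% interval implied by fold and p and filled symbols for an adjusted p under 0.05. Filled symbols occur for 5 members in HCD-HCD males and 5 in HCD-RD males and in no female group, and members with no bar had a log2 fold under 0.1 in size.

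Among the miR-204 family, miR-204-5p, the guide arm, was higher than RD-RD in every comparison. The authors' deposited table gives a fold of 2 in HCD-HCD males (log2 1.00 ± 0.33 SE, interval 1.28 to 3.12, adjusted p = 0.0172). In HCD-RD males the authors' deposited table gives 2.06 (log2 1.04 ± 0.33 SE, interval 1.32 to 3.22, adjusted p = 0.013). In RD-HCD males the deposited fold in the authors' deposited table was 1.42 (interval 0.911 to 2.21, adjusted p = 0.592). The intervals of the 3 male folds overlap, and the folds order as HCD-RD, HCD-HCD and RD-HCD with neighbours that do not differ beyond their errors.

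miR-211-5p ran close to its near-copy in males of HCD dams, where its reads may include some of miR-204-5p. It rose 1.97-fold in HCD-HCD males in the authors' deposited table (log2 0.98 ± 0.38 SE, adjusted p = 0.0499). The same fold of 1.97 in HCD-RD males just missed the threshold, with an adjusted p of 0.0502 on the p-value of the authors' deposited table. Both lie so near 0.05 that the 2 groups are not separated by the test, and the call in HCD-HCD males ended when piRNA entries were included (adjusted p = 0.0515) or folds were centred (0.0603). Adjusted over only miRNAs with no remark, miR-211-5p was called in both groups, with an adjusted p of 0.043 in HCD-HCD and 0.0381 in HCD-RD males. In RD-HCD males the authors' deposited table gives 1.16 for miR-211-5p (interval 0.689 to 1.95).

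The passenger arm miR-204-3p rose in HCD-RD males, with a fold of 1.67 in the authors' deposited table (log2 0.74 ± 0.26 SE, adjusted p = 0.0316), and with centred folds its adjusted p was 0.0541. Its fold in HCD-HCD males was 1.2 in the authors' deposited table (interval 0.844 to 1.71, adjusted p = 0.509). The direct contrast of HCD-HCD with HCD-RD males for miR-204-3p was 0.719-fold (interval 0.492 to 1.05, adjusted p = 0.747), so a difference between these groups was not shown. Across the 3 members of the family and the 6 comparisons, 18 of 18 deposited folds were above 1, from 1.11 to 2.06 in the authors' deposited table.

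In females the folds of miR-204-5p, miR-204-3p and miR-211-5p were also above 1, and none passed the test. With HCD dams, miR-204-5p (1.26 in HCD-HCD and 1.37 in HCD-RD) and miR-211-5p (1.24 and 1.34) had smaller folds than in males. Those of miR-204-3p were not smaller, at 1.4 and 1.68 beside 1.2 and 1.67 in males. In RD-HCD females each was larger than in males (1.58, 1.5 and 1.27 beside 1.42, 1.11 and 1.16 in the authors' deposited table). In HCD-HCD females 0 of 9 members passed, where 0.0668% of 1497 miRNAs were called. In HCD-RD females 0 of 9 passed, where 1.69% of 1298 were called (1% higher and 0.693% lower), and in RD-HCD females 0 of 9, where 0% of 1497 were called. The numbers at an unadjusted p under 0.05 were 2, 1 and 1 members, beside 5.61%, 11.5% and 1% of all tested miRNAs. The lowest adjusted p of a member in females belonged to miR-204-3p in HCD-RD females, whose fold in the authors' deposited table was 1.68 (log2 0.75 ± 0.24 SE, unadjusted p = 0.00183, adjusted p = 0.0659).

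RD-HCD females were the group with the narrowest spread, and miR-204 stood near its upper end. Among 850 miRNAs with no remark the 5th and 95th percentiles of the log2 fold were -0.39 and 0.28. miR-204-5p, with a value of 1.58 in the authors' deposited table (interval 1.06 to 2.36, unadjusted p = 0.0258), ranked 6 from the highest. miR-204-3p, with 1.5 in the authors' deposited table (interval 0.886 to 2.54), ranked 7 and miR-211-5p, with 1.27, ranked 25. In HCD-HCD males miR-204-5p ranked 30 of 766 and in HCD-RD males 29 of 775. Neither arm of miR-204 passed the adjusted test in RD-HCD females, and the ranks are a description.

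**Figure D2:**
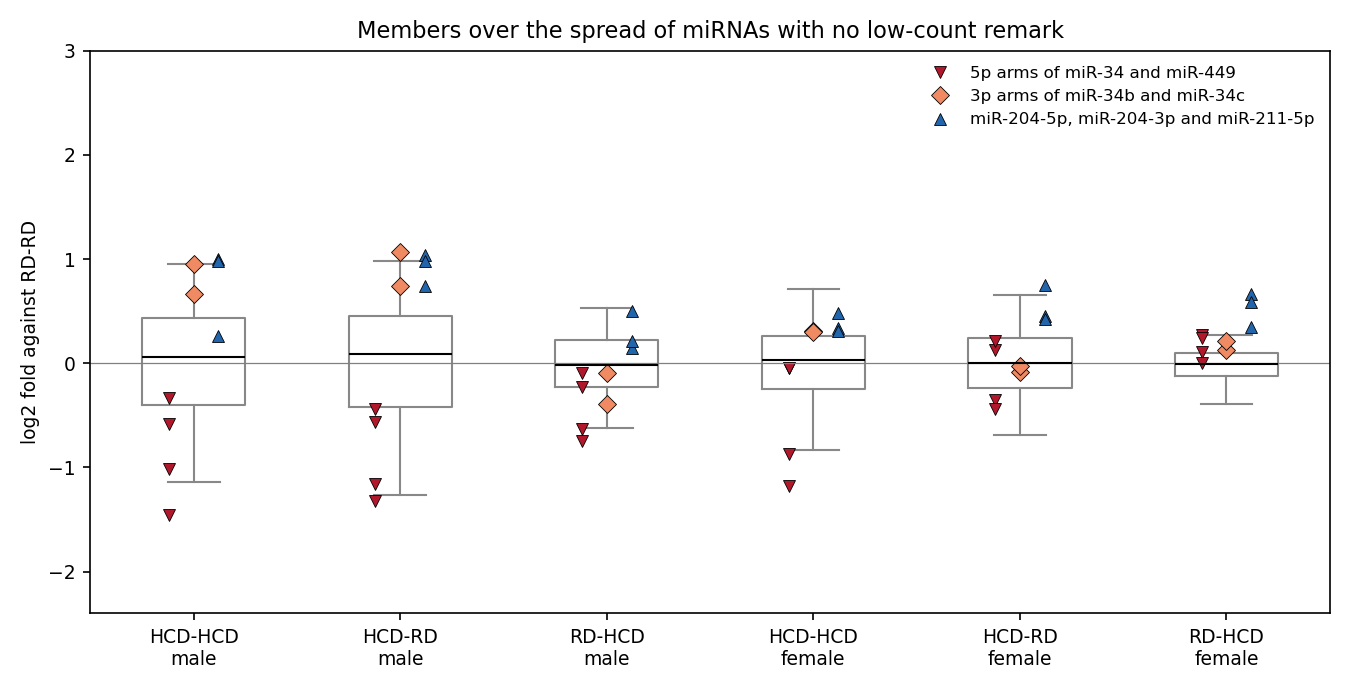
Log2 folds of the members against RD-RD in the 6 comparisons, drawn over a box for all miRNAs with no low-count remark (651 to 870 per comparison). The miR-204 and miR-211 members sit above 0 throughout, and in RD-HCD females the box is narrow and miR-204-5p lies at 0.66, above the 95th percentile of 0.28.

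The 5p arms of the miR-34 and miR-449 families, which carry the shared seed, lay below RD-RD in all 12 deposited folds in males, from 0.364 to 0.935 in the authors' deposited table. These 12 folds share their RD-RD libraries and are not independent. miR-34b-5p had the largest drop of the 4, to 0.364 in HCD-HCD males in the authors' deposited table (log2 -1.46 ± 0.31 SE, interval 0.239 to 0.554, adjusted p = 0.000123). In HCD-RD males it fell to 0.4 in the authors' deposited table (log2 -1.32 ± 0.31 SE, interval 0.262 to 0.61, adjusted p = 0.00049). In RD-HCD males its value in the authors' deposited table was 0.645 (interval 0.423 to 0.983, unadjusted p = 0.0414, adjusted p = 0.381). Among miRNAs with no remark it ranked 21 from the lowest of 766 in HCD-HCD males and 37 of 775 in HCD-RD males.

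miR-34c-5p, made from the neighbouring hairpin, moved with it. Its fold in the authors' deposited table was 0.495 in HCD-HCD males (log2 -1.01 ± 0.27 SE, adjusted p = 0.00281) and 0.448 in HCD-RD males (log2 -1.16 ± 0.27 SE, adjusted p = 0.00049), a fall in each. In RD-HCD males the authors' deposited table gives 0.595 (log2 -0.75 ± 0.27 SE, interval 0.411 to 0.862, unadjusted p = 0.00601, adjusted p = 0.238), which placed miR-34c-5p 23 from the lowest of 870. The intervals of miR-34b-5p and miR-34c-5p overlap in each male group.

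The members of the same seed at other loci did not pass the test. For miR-34a-5p, the more widely expressed member, the authors' deposited table gives 0.667 in HCD-HCD males (interval 0.391 to 1.14, adjusted p = 0.31), 0.676 in HCD-RD males and 0.855 in RD-HCD males. For miR-449a-5p, known from multiciliated cells, the authors' deposited table gives 0.794 (interval 0.523 to 1.2, adjusted p = 0.471), 0.735 and 0.935 in the same order. The fold of miR-34c-5p in HCD-HCD males, 0.495 in the authors' deposited table, lies inside the interval of miR-34a-5p and below that of miR-449a-5p, a difference between members that was not tested.

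In females the same 2 miRNAs lay lowest among the members in HCD-HCD. The fold of miR-34b-5p in the authors' deposited table was 0.442 (log2 -1.18 ± 0.37 SE, interval 0.268 to 0.73, unadjusted p = 0.00139, adjusted p = 0.155), 11 from the lowest of 651. That of miR-34c-5p in the authors' deposited table was 0.546 (interval 0.344 to 0.868, unadjusted p = 0.0104, adjusted p = 0.399), 29 from the lowest. In HCD-RD females the authors' deposited table gives 0.781 for miR-34b-5p and 0.735 for miR-34c-5p, both with intervals that include 1. In RD-HCD females the corresponding folds in the authors' deposited table were 1.08 and 1.18, on the other side of 1.

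The 3p arms of the miR-34b and miR-34c hairpins took the opposite side from their 5p arms in males of HCD dams. miR-34b-3p rose to 1.94-fold in HCD-HCD males in the authors' deposited table (log2 0.96 ± 0.33 SE, interval 1.24 to 3.04, adjusted p = 0.0259). It rose to 2.1-fold in HCD-RD males in the authors' deposited table (log2 1.07 ± 0.33 SE, interval 1.34 to 3.28, adjusted p = 0.011). miR-34c-3p had folds of 1.58 and 1.67 in these groups in the authors' deposited table, where its unadjusted p was 0.0422 and 0.023 and its adjusted p 0.135 and 0.0913, so it did not pass. In RD-HCD males the authors' deposited table gives 0.935 for miR-34b-3p and 0.763 for miR-34c-3p (interval 0.488 to 1.19).

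A hairpin is cut into both arms together, so its arms can be set against each other within a comparison, as a difference of log2 folds, 3p minus 5p. For miR-34b this difference was 2.42 in HCD-HCD males and 2.39 in HCD-RD males. By size these ranked 2 of 216 and 1 of 216 among hairpins with no remark on either arm, whose median difference in size was 0.64 and 0.62. With its sign kept, the median difference of those hairpins was 0.21 and 0.16, on the same side as miR-34b. For miR-34c the difference was 1.67 (rank 10) in HCD-HCD males and 1.90 (rank 7) in HCD-RD males. The arms were compared after their values were seen and the covariance of arms is unknown, so these differences carry no test.

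Among hairpins with no remark on either arm, few had both arms called in opposite directions. In HCD-HCD males 10 of these hairpins had both arms called, and miR-34b and miR-434 were the 2 with opposite signs. In HCD-RD males 18 of them had both arms called, and let-7g, miR-137, miR-338 and miR-34b were the 4 with opposite signs. In the other groups the miR-34b difference was 0.53 in RD-HCD males, 1.49 in HCD-HCD females (rank 6 of 187), 0.27 in HCD-RD females and 0.01 in RD-HCD females. For miR-34a, whose 3p arm is no member, it was 1.15 (rank 36) in HCD-HCD males and 0.72 (rank 87) in HCD-RD males. For miR-204 it was -0.74 (rank 91) in HCD-HCD males and -0.30 (rank 169) in HCD-RD males, where the median size was 0.64 and 0.62. The 2 arms of that hairpin were thus nearer to each other than those of miR-34b.

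**Figure D3:**
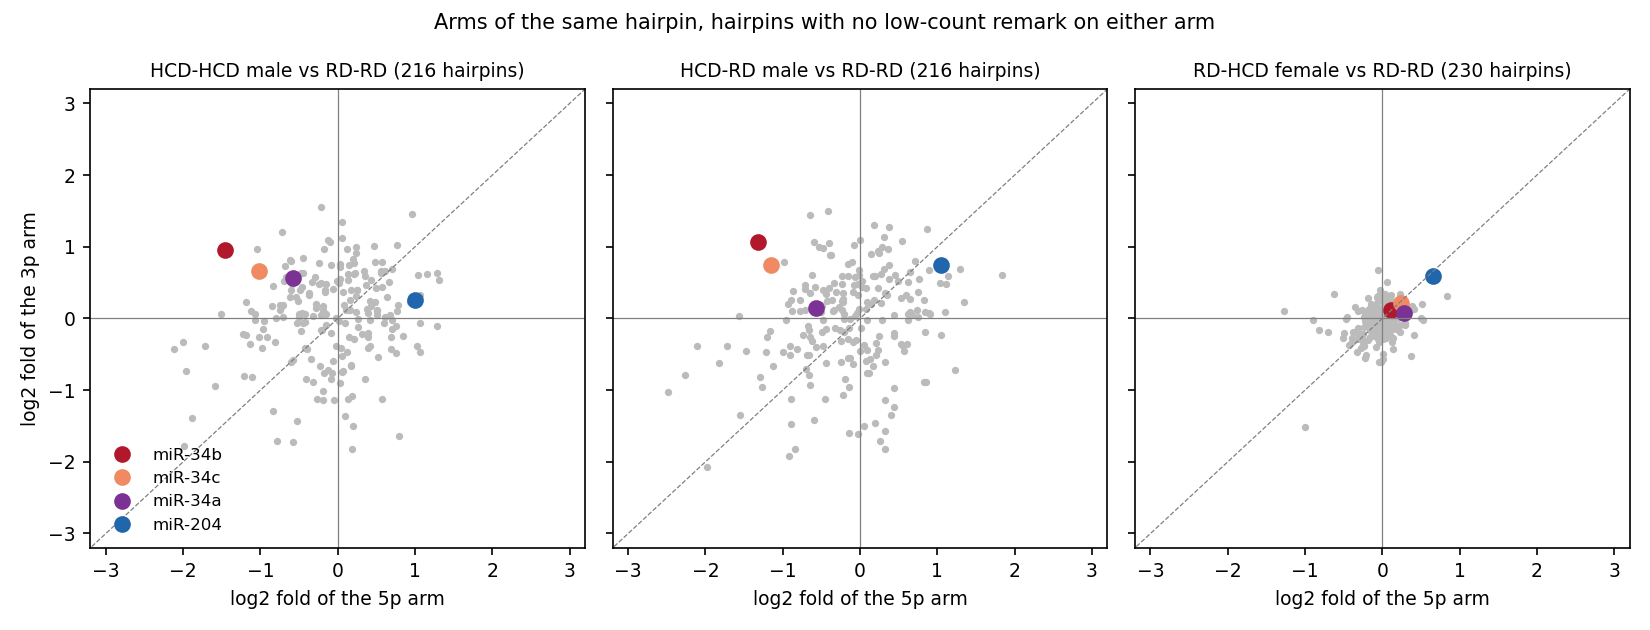
Log2 fold of the 3p arm against that of the 5p arm of the same hairpin in 3 comparisons with RD-RD, each point 1 hairpin with no low-count remark on either arm and the diagonal marking equal folds. In the HCD-HCD and HCD-RD male panels miR-34b (5p -1.46 and -1.32, 3p 0.96 and 1.07) and miR-34c lie in the upper left, away from the diagonal, and miR-204 lies in the upper right.

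miR-211, outside these counts because its 3p arm had a mean count under 10 in 1 group, also had arms on opposite sides. miR-211-3p fell to 0.339 in HCD-HCD males (interval 0.175 to 0.658, adjusted p = 0.0125) and to 0.341 in HCD-RD males (adjusted p = 0.0129) in the authors' deposited table, while miR-211-5p was at 1.97 in both and passed in HCD-HCD males. In RD-HCD males miR-211-3p was at 0.459 in the authors' deposited table (unadjusted p = 0.0239, adjusted p = 0.293), below 1 as in the other male groups.

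Differences between diet groups of 1 sex were taken from their deposited folds, since RD-RD cancels within a table. Between HCD-RD and RD-HCD males, which differ in both diets, 2 of 9 members passed, both higher in HCD-RD, where 4.58% of 1376 miRNAs were called (1.38% higher and 3.2% lower). miR-34b-3p was 2.25-fold higher (log2 1.17 ± 0.35 SE, interval 1.39 to 3.62, adjusted p = 0.0276). miR-34c-3p was 2.19-fold higher (log2 1.13 ± 0.35 SE, interval 1.36 to 3.52, adjusted p = 0.0344). The 5p arms were at 0.62 for miR-34b-5p (interval 0.395 to 0.973, adjusted p = 0.289) and 0.753 for miR-34c-5p (interval 0.507 to 1.12), and did not pass.

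Between HCD-HCD and RD-HCD males, which differ in the dam's diet, 0 of 9 members passed the normal test with Benjamini-Hochberg adjustment and 3 had an unadjusted p under 0.05, where 4.3% of 1371 were called (1.39% higher and 2.92% lower). The smallest adjusted p values were those of miR-34b-3p, 2.08-fold higher in HCD-HCD (interval 1.28 to 3.35, adjusted p = 0.0588), and miR-34c-3p, 2.07-fold higher (interval 1.29 to 3.33, adjusted p = 0.0584). With only miRNAs with no remark adjusted together, these were 0.0476 and 0.0461. The authors also deposited a list for this comparison, cut at a fold of at least 2 and an unadjusted p up to 0.05, with 10 higher and 37 lower entries. It holds 2 of 9 members, miR-34b-3p at 2.09 (p = 4.27e-05) and miR-34c-3p at 2.06 (p = 0.000157) in the authors' deposited table, the 6th and 7th smallest p of the 10. These are the authors' own test of the comparison, and with ranks of 13 and 15 by p in the whole list their Benjamini-Hochberg values over 1618 miRNAs cannot exceed 0.00531 and 0.0169. By that test both pass, and by the contrast of folds neither does, whose SE of 0.35 for each is wider than the 0.26 and 0.28 implied by the deposited p. The other 7 members are not in that list, and miR-204-5p had a contrast of 1.41 (interval 0.876 to 2.27).

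Between HCD-HCD and HCD-RD males, which share the dam's diet, 0 of 9 members passed, 0 had an unadjusted p under 0.05, and 0% of 1381 miRNAs were called. The members' folds lay between 0.719 for miR-204-3p and 1.1 for miR-34c-5p. The intervals for miR-34b-5p (0.579 to 1.43), miR-34b-3p (0.572 to 1.49) and miR-204-5p (0.603 to 1.56) are wide, so these groups were not shown to be alike. In females, between HCD-HCD and RD-HCD, 0 of 9 passed and 2 had an unadjusted p under 0.05, where 0.089% of 1123 were called. miR-34b-5p was at 0.41 (log2 -1.29 ± 0.35 SE, interval 0.255 to 0.659, unadjusted p = 0.000237, adjusted p = 0.0889), or adjusted p = 0.0453 over miRNAs with no remark. miR-34c-5p was at 0.463 (interval 0.295 to 0.727, adjusted p = 0.145), while the 3p arms were at 1.14 for miR-34b-3p and 1.06 for miR-34c-3p.

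**Figure D4:**
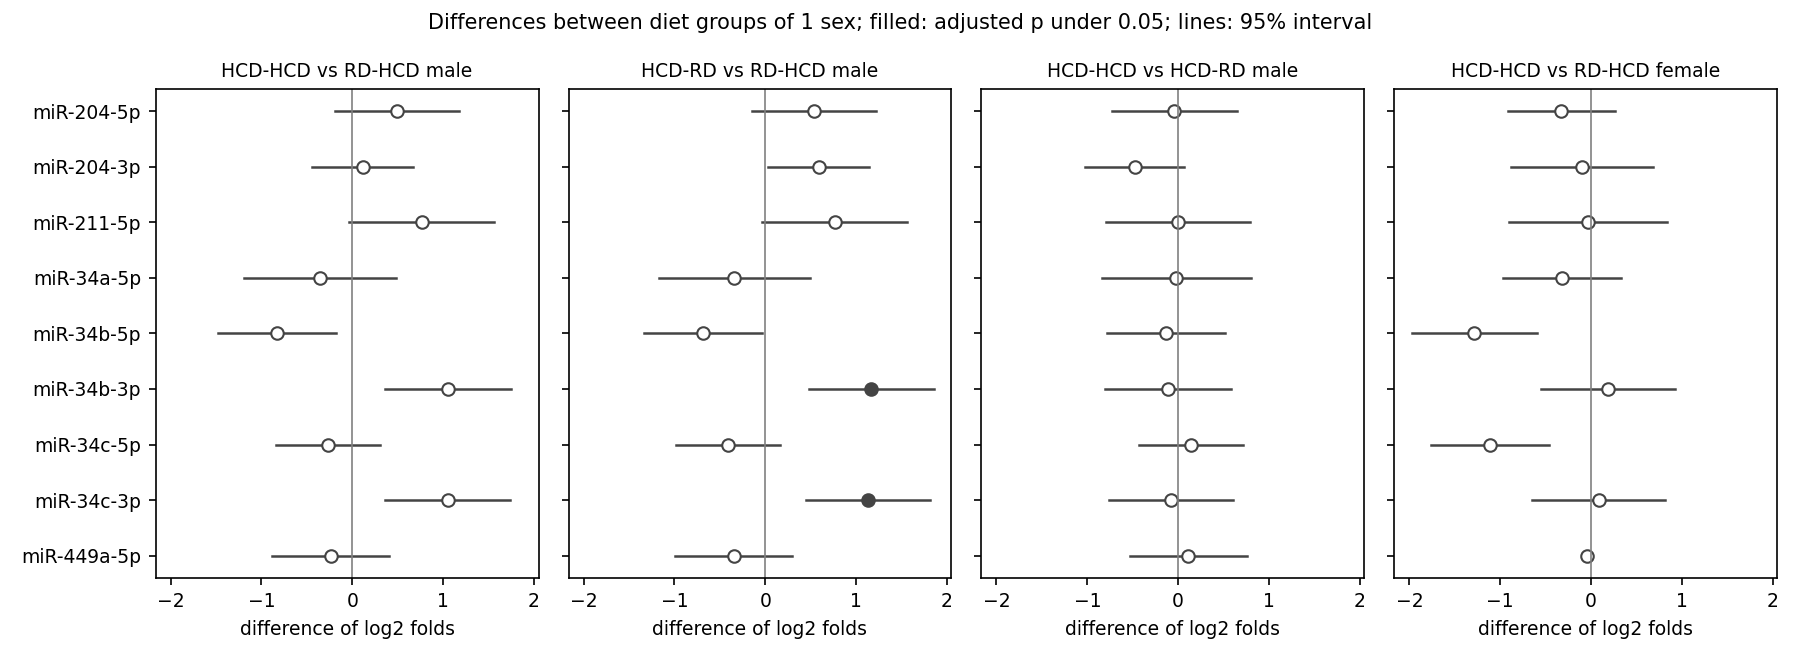
Differences of log2 folds between diet groups of 1 sex for the 9 members, with lines for the 95% interval and filled points for an adjusted p under 0.05. The filled points are miR-34b-3p at 1.17 and miR-34c-3p at 1.13 in HCD-RD against RD-HCD males, and in females miR-34b-5p and miR-34c-5p lie lowest, at -1.29 and -1.11.

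The response of the members in males was not shown to differ from that in females. Over the 3 diet groups, 0 members passed the test of the male minus female difference of log2 folds, where 0% of 636 miRNAs were called in HCD-HCD, 1.63% of 861 in HCD-RD and 0% of 508 in RD-HCD. The members at an unadjusted p under 0.05 numbered 0, 1 and 1 in that order, and 6 of the 27 differences had no error because a log2 fold was under 0.1 in size. The difference of miR-34b-5p in HCD-RD was -0.97 ± 0.38 SE (interval -1.72 to -0.21, unadjusted p = 0.0118, adjusted p = 0.154). In HCD-HCD it was -0.28 ± 0.48 SE (interval -1.23 to 0.66). For miR-34c-5p the difference was -0.71 in HCD-RD (adjusted p = 0.29) and -0.99 ± 0.42 SE in RD-HCD (interval -1.82 to -0.16, adjusted p = 0.238). miR-34b-3p had a difference of 1.15 in HCD-RD, for which no error was implied. For miR-204-5p in HCD-HCD it was 0.67 (interval -0.21 to 1.55, adjusted p = 0.795).

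Relatives and neighbours of the members were read from lists. Of the listed other arms and miR-34 and miR-449 relatives, 5 entries in the tables, miR-211-3p was the only one that passed in any of the 6 comparisons. It was 1 of 5 in HCD-HCD and in HCD-RD males, beside 19.3% and 18.4% of all tested miRNAs. miR-7670-3p, which is not in that list but shares the seed UCCCUUU with miR-204-5p and miR-211-5p, had mean counts under 10 in both groups and did not pass in males. Its folds in the authors' deposited table were 0.521, 0.521 and 0.515 in HCD-HCD, HCD-RD and RD-HCD males (adjusted p = 0.0715, 0.0763 and 0.277), below 1 where those of miR-204-5p were above it. miR-449c-5p, of the miR-34 seed but with a low-count remark, was at 0.45 in HCD-RD males in the authors' deposited table (unadjusted p = 0.0219, adjusted p = 0.0883). The arms of 5 hairpins in introns of Htr2c, the serotonin receptor gene that is also strongly expressed in choroid plexus, were 10 entries. None rose and 2 fell in HCD-HCD males, near the 19.3% called over all miRNAs, namely miR-764-3p at 0.352 (adjusted p = 0.000111) and miR-1912-5p at 0.465 (adjusted p = 0.0102) in the authors' deposited table. In HCD-RD males 3 of 10 passed, beside 18.4% of all miRNAs, where miR-1264-5p rose to 1.87 (adjusted p = 0.0497), while miR-764-3p fell to 0.306 (adjusted p = 7.98e-06) and miR-1298-3p to 0.633 (adjusted p = 0.0135) in the authors' deposited table. In the other 4 comparisons 0 of 10 passed.

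The epithelial miR-200 family could be tested only in part in males, where the authors' deposited table holds a p for 5 of its 10 arms. None of these 5 passed in a male group, beside 19.3%, 18.4% and 1.47% of all tested miRNAs in HCD-HCD, HCD-RD and RD-HCD males. The arms miR-141-3p, miR-200a-3p, miR-200c-3p and miR-429-3p have no low-count remark and no p in males, so their folds carry no test. For miR-141-3p the authors' deposited table gives 0.325, 0.246 and 0.352 in HCD-HCD, HCD-RD and RD-HCD males. For miR-200a-3p the authors' deposited table gives 0.444, 0.339 and 0.442 in the same order. All folds of these untested arms were below 1. Of the arms with a p, miR-200c-5p was at 0.952, 1.32 and 1.16 and miR-429-5p at 1.06, 0.813 and 0.68. The other arms with a p were below 1 in each male group. Nearest to the threshold was miR-200a-5p, at 0.483 in HCD-HCD and in HCD-RD males in the authors' deposited table (adjusted p = 0.0508 and 0.0535). Among the arms with a p, miR-141-5p, miR-200a-5p and miR-429-5p carried the low-count remark in every male group. In females, where 10, 9 and 10 arms had a p in the HCD-HCD, HCD-RD and RD-HCD groups, miR-200c-5p alone passed, at 2.32 in HCD-RD in the authors' deposited table (adjusted p = 0.0245). In HCD-RD females 1.69% of all tested miRNAs were called.

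Markers of other cells were read the same way, and their part in the members' values was not tested. The 4 neuronal and hypothalamic markers (miR-7a-5p, miR-124-3p, miR-9-5p and miR-128-3p) had no low-count remark in any comparison. Of these, 0 of 4 passed in males, beside 19.3%, 18.4% and 1.47% of all tested miRNAs in the HCD-HCD, HCD-RD and RD-HCD groups. miR-7a-5p fell to 0.439 in HCD-RD females in the authors' deposited table (adjusted p = 0.0234). In HCD-HCD males 5 of 13 markers of other cell types fell and 1 rose, where 13.7% of all tested miRNAs fell and 5.61% rose. In HCD-RD males 9 fell and 1 rose, where 12% of all tested miRNAs fell and 6.38% rose. Among miRNAs with no remark, 22.3% and 24.2% were called in these groups. The oligodendrocyte marker miR-219a-5p fell to 0.339 and 0.315 in these groups, and miR-338-3p to 0.606 in HCD-RD males, in the authors' deposited table. In HCD-HCD males miR-338-3p was at 0.725 in the authors' deposited table and did not pass. The arms of the miR-338 hairpin were called in opposite directions in HCD-RD males. The leukocyte and microglial markers miR-142a-5p (0.256 and 0.178) and miR-142a-3p (0.599 and 0.49) fell in both groups in the authors' deposited table. They are arms of 1 hairpin, and the remaining marker of that list, miR-223-3p, was at 1.32 and 1.07 and did not pass. Of the blood markers, miR-144-3p fell to 0.303 and 0.265 while miR-486a-5p rose to 1.68 in HCD-RD males in the authors' deposited table. The remaining blood marker, miR-451a, was at 1.08 and 0.8 and did not pass. Of the pineal or retinal markers, miR-96-5p fell to 0.382 and 0.204, and miR-182-5p and miR-183-5p fell to 0.376 and 0.353 in HCD-RD males, in the authors' deposited table. The endothelial markers miR-126a-5p and miR-126a-3p are arms of 1 hairpin and were called in different groups. In HCD-HCD males miR-126a-5p rose to 1.34 while miR-126a-3p was at 0.769 and did not pass, in the authors' deposited table. In HCD-RD males miR-126a-3p fell to 0.68 while miR-126a-5p was at 0.901 and did not pass, in the authors' deposited table. In RD-HCD males and in all 3 female groups 0 of these other 13 markers passed, though miR-219a-5p had no p in HCD-RD females. The share called over all tested miRNAs was 1.47% in RD-HCD males. In HCD-HCD, HCD-RD and RD-HCD females it was 0.0668%, 1.69% and 0%.

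Across the 6 comparisons the non-member patterns nearest to miR-204-5p, among 620 candidates with no remark in any of them, were those of miR-494-3p, miR-6988-3p and miR-378a-5p. Their Euclidean distances over the 6 log2 folds were 0.547, 0.586 and 0.613, against a median of 1.81. miR-494-3p had folds of 1.83, 1.88 and 1.54 in HCD-HCD, HCD-RD and RD-HCD males in the authors' deposited table. Nearest to miR-34b-5p were miR-219a-5p, miR-219c-3p and miR-341-3p at distances of 0.448, 0.575 and 0.593, against a median of 2.57. miR-219a-5p, listed above as an oligodendrocyte marker, had folds of 0.339, 0.315 and 0.685 in the 3 male groups in the authors' deposited table. These distances describe 6 comparisons that share controls within a sex.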

How the data were processed

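Per the file headers, the deposited values came from QIAseq miRNA libraries with unique molecular identifiers, and the authors obtained fold changes (ratios) and unadjusted p-values by DESeq2. Fold regulation, a score deposited by the authors, is the fold or minus its inverse below 1, and folds below 1 were taken from it. The authors' remark marks a mean molecule count under 10. Build mm10 is in the submitters' processing notes, while the aligner was not stated in them or in the headers. No counts per library were used, so the planned form was adjustment of the deposited p-values and no count model was run.

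The tables list 1618 miRNAs and 103 piRNAs, the latter left out. HCD-RD females and the RD-RD females formed a table of their own, with its own normalisation. For RD-HCD males, library numbers differ between workbook and titles although the group code is the same. The sample sheets list 43 libraries, and 18 of other groups were not analysed here.

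Adjustment was by Benjamini-Hochberg over all miRNAs with a p, at 0.05. The SE is the log2 fold over the normal score of p, with none under 0.1 in size. Differences between groups or sexes used a normal test on these errors, and contrasts within a sex used the group sizes. Tools were Python 3.11.15, pandas 2.3.3 and scipy 1.17.1. The calling steps were also run on simulated folds whose normal errors were drawn from the same implied SE. That run can check the code and cannot check the deposited p-values. Sequences came from RefSeq and hairpins from GENCODE M21. Named were all members, list and marker miRNAs at an adjusted p under 0.05, and the 3 nearest patterns to miR-204-5p and miR-34b-5p. miR-449c-5p, miR-7670-3p, miR-141-3p, miR-141-5p, miR-200a-3p, miR-200a-5p, miR-200c-3p, miR-429-3p, miR-429-5p, miR-223-3p, miR-451a, miR-434, let-7g, miR-137 and miR-338 were named after their values were seen. The members and lists were chosen with earlier results of these data known.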

Additional observations from a re-analysis of the deposited data

How the results depend on the processing

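Of the alternative counts of members called, 50 stayed within 1.5 times and 8 did not, and no value reversed. With Benjamini-Yekutieli adjustment 2 members were called in HCD-HCD males and 2 in HCD-RD males, in place of 5 and 5, and with Holm adjustment 1 and 2. These were miR-34b-5p and miR-34c-5p, with miR-34b-5p alone under Holm in HCD-HCD males. With only miRNAs with no low-count remark, 1 member was called in HCD-RD females (miR-204-3p), 2 in HCD-HCD against RD-HCD males and 1 in HCD-HCD against RD-HCD females, in place of 0 in each; fewer miRNAs were then adjusted together. Of 66 alternative values of members called at the outset, 50 kept the call and 16 lost it, and of 366 of members not called, 5 gained it. One gain, miR-211-5p with only miRNAs with no remark, took HCD-RD males from 5 to 6 called. With the authors' own p-values, an alternative chosen after seeing the data, 2 members were called in HCD-HCD against RD-HCD males (miR-34b-3p and miR-34c-3p). Filling missing errors in the sex difference, chosen after seeing the data, called 0 members. The share called over all miRNAs was not counted at these alternative settings. Whether members lost or gained calls more often than other miRNAs was therefore not tested. Centring on the median log2 fold of miRNAs with no remark moved values by less than 0.1.

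No paired analysis was possible because the files hold 1 fold and 1 p-value per comparison and no value per library. Leaving out each library could not be run for the same reason. The depth is unknown, so no interval for counting error can be given.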
